A study of Yarrowia lipolytica with 12 samples.

Results

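In cells of *Y. lipolytica* growing on N-acetylglucosamine (GlcNAc), a set of 134 genes had lower levels in both of 2 deletion mutants, Yl*rep1*Δ and Yl*ngs1*Δ, than in the wild type. They were drawn from 6400 genes counted, of which 5400 had a wild-type mean of at least 5 CPM (the count of a gene relative to the summed counts of its library, on the usual counts-per-million scale). A gene was taken when its mean over the 6 mutant libraries was at most 0.6 times its mean over the 6 wild-type libraries and its highest CPM in the libraries labelled Yl*ngs1*Δ was below its lowest wild-type CPM. Genes that the study lists as transcription factor or cell wall protein genes, and a few further named genes, were left out. This removed 76 genes, of which 13 meet the same conditions. Because the mutant and wild-type values chose the genes, those differences are described here without a test. The comparison of the plasmid with the empty vector in wild-type cells did not enter the choice, although both wild-type groups set the wild-type mean and the lowest wild-type value, and it was tested.

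The study asked how YlRep1 and YlNgs1 hold back filamentous growth on GlcNAc, and RNA-Seq was run on 12 libraries in 4 groups of 3. All strains were PO1a or made from it (mating type A, with mutant *LEU2* and *URA3* genes), and all were grown in liquid YNB-GlcNAc medium with uracil to an OD600 of about 0.8. Wild-type cells carried the empty vector pYL27 (WT/Vec) or the plasmid pYL27-4NAG (WT/4NAG), and cells of the Yl*rep1*Δ and the Yl*ngs1*Δ strain, in each of which the gene was replaced by a lox site, carried pYL27-4NAG. Each deletion was represented by 1 strain, and the sources used do not say whether replicates were separate cultures, so that p-values measure the spread between these libraries only. That plasmid expresses the genes of a GlcNAc transporter (Yl*NGT1*) and 3 catabolic enzymes (Yl*NAG1*, Yl*DAC1*, Yl*NAG5*), each from the constitutive Yl*ACT1* promoter, so that mutants unable to induce these genes can grow on GlcNAc. No group paired a mutant with the empty vector. By the study's account the mutants with the plasmid grew more slowly in this medium than wild-type cells, and effects of the deletion and of growth rate cannot be told apart here. In bulk RNA, fewer cells expressing a gene and less of its RNA per cell cannot be told apart either.

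YlRep1 is an Ndt80-family DNA-binding protein and YlNgs1 a protein with a histone acetyltransferase domain; in *C. albicans* their orthologs act together at promoters of GlcNAc catabolic genes, where Ngs1 senses the sugar. Of the 134 genes, a part was annotated, by similarity to other species, to the use of nitrogen compounds and of formate. Yeasts take up amino acids, urea and γ-aminobutyrate (GABA) through plasma membrane permeases and break them down to ammonium, glutamate and central metabolites, and such genes are generally kept low while a preferred nitrogen source is present. Formate dehydrogenase oxidises formate to CO2 and passes the electrons to NAD+, which removes a by-product of one-carbon metabolism.

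The levels of the deleted genes did not match every label. Yl*REP1* (YALI0D24860) stood at 24.1%, 14.7% and 83.7% of its wild-type mean in replicates 1, 2 and 3 labelled Yl*rep1*Δ, and Yl*NGS1* (YALI0E20185) stood at 0.0724%, 20.3% and 40.6% in replicates 1, 2 and 3 labelled Yl*ngs1*Δ. The gene not deleted under a label was also measured. Yl*NGS1* stood at 55.8%, 72.0% and 92.5% in replicates 1, 2 and 3 labelled Yl*rep1*Δ. Yl*REP1* stood at 85.5%, 78.2% and 85.4% in those labelled Yl*ngs1*Δ. The mutant libraries are therefore named by their labels throughout, and results are also given without replicate 3 labelled Yl*rep1*Δ. Library totals ran from 15667204 to 22650213 counts. The median coefficient of variation of the 134 genes between replicates was 6.62% in WT/Vec, 6.36% in WT/4NAG, 41.6% in the libraries labelled Yl*rep1*Δ and 26.8% in those labelled Yl*ngs1*Δ, so the replicates of each mutant were much less alike than those of the wild type.

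Over both mutants the 134 genes stood at a median of 49.5% of their wild-type means, between 12.8% and 59.99%, where the median of all 5400 expressed genes was 99.2%. At or below 50% lay 71 genes and at or below 25% lay 8 genes. Their wild-type means ran from 5.48 to 1505 CPM with a median of 105 CPM, against a median of 57.2 CPM for all expressed genes. Summed, the 134 genes held 2.53% of the wild-type counts, 1.43% of the counts in libraries labelled Yl*rep1*Δ and 1.04% in those labelled Yl*ngs1*Δ. Genes with a wild-type mean of 100 CPM or more (69 genes, median 50.5%) and the others (65 genes, median 47.9%) stood at like levels in the mutants.

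**Figure D1:**
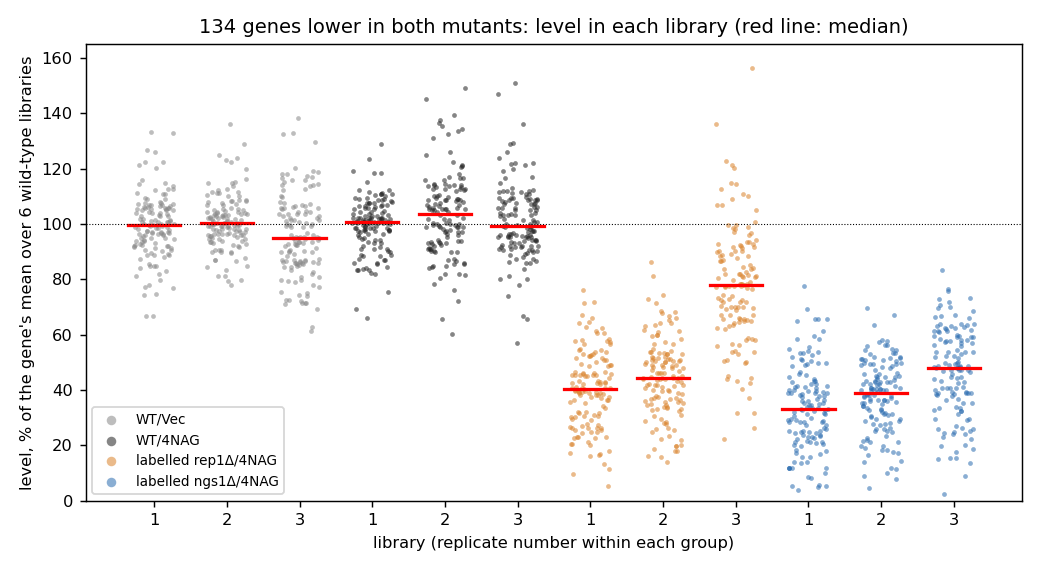
Level of each of the 134 genes (points) in each of the 12 libraries, as a percentage of the gene's mean over the 6 wild-type libraries, with the median of each library as a red line. Medians lie at 40.5%, 44.3% and 77.8% in replicates 1, 2 and 3 labelled Yl*rep1*Δ and at 33.3%, 38.8% and 48.0% in those labelled Yl*ngs1*Δ, and replicate 3 labelled Yl*rep1*Δ lies nearest to the wild-type libraries.

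The depth of the change differed from library to library. In replicates 1, 2 and 3 labelled Yl*rep1*Δ the median gene stood at 40.5%, 44.3% and 77.8% of its wild-type mean, and in those labelled Yl*ngs1*Δ at 33.3%, 38.8% and 48.0%. Over all expressed genes the medians of the same 6 libraries lay between 89.2% and 108%. Replicate 3 labelled Yl*rep1*Δ had the highest mutant value for 115 of the 134 genes. Replicate 1 labelled Yl*ngs1*Δ had the lowest mutant value for 76 genes, and replicate 2 for 31 genes. The rule used these values and asked for a gap from the wild type under the Yl*ngs1*Δ label only. Such counts were not made over all expressed genes, so nothing is read from them. The mean of all 6 mutant libraries entered the rule, so nothing is read either from the next counts of genes below every wild-type library. In replicates 1 and 2 labelled Yl*rep1*Δ, 133 and 134 of the 134 genes lay below every wild-type library, as did 46.9% and 31.0% of all expressed genes. In replicate 3 this held for 89 genes, against 26.7% of all expressed genes, and 6 genes lay above every wild-type library there: YALI0E14256 (a formate dehydrogenase), YALI0F02849 (Gcv1-like), YALI0E17281 (Pst2-like), YALI0D17446 (similar to an acetylornithine deacetylase of *S. pombe*), YALI0E07051 (similar to aminotransferases) and YALI0D07898 (no similarity), the last 3 named after their values were seen.

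The rule asked for a gap between the libraries labelled Yl*ngs1*Δ and the wild type but not between those labelled Yl*rep1*Δ and the wild type. The highest value labelled Yl*rep1*Δ lay below the lowest wild-type value for 88 of the 134 genes, which were thus free of overlap in all 6 mutant libraries. Of all expressed genes, 19.6% met this condition in the libraries labelled Yl*ngs1*Δ, 10.0% in those labelled Yl*rep1*Δ and 7.56% in all 6, and nothing is read from the count of 88 since the rule used the same libraries. Median levels were 56.6% of wild type in the libraries labelled Yl*rep1*Δ (between 19.4% and 74.4%) and 41.7% in those labelled Yl*ngs1*Δ (between 6.19% and 61.9%). The mean was lower in the libraries labelled Yl*ngs1*Δ for 127 genes and higher for 7. The rule favoured this split, since it asked for a gap under that label only, and nothing is read from it. Without replicate 3 labelled Yl*rep1*Δ the median of the libraries under that label was 43.9%, and that of both mutants together 42.3%. Without replicate 3 labelled Yl*ngs1*Δ the median of the libraries labelled Yl*ngs1*Δ was 36.5%.

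**Figure D2:**
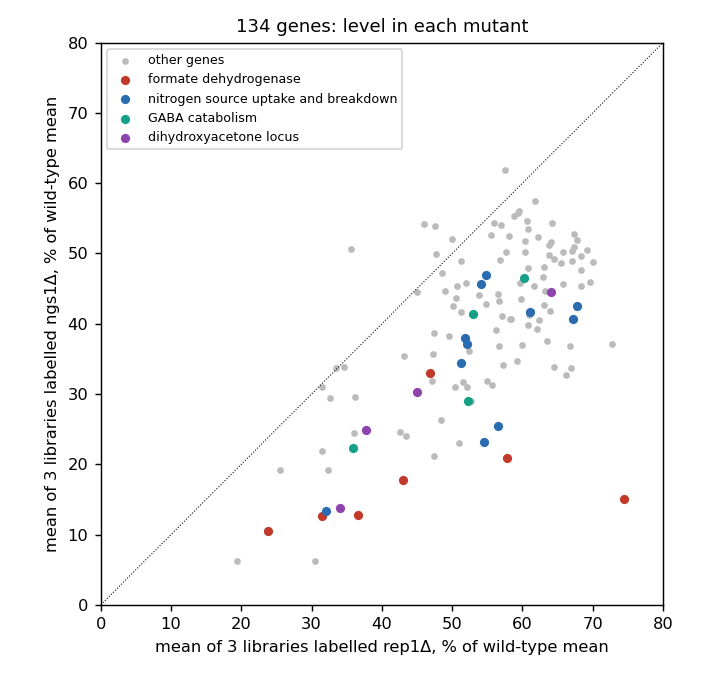
Mean level of each of the 134 genes in the 3 libraries labelled Yl*rep1*Δ (horizontal) and in the 3 labelled Yl*ngs1*Δ (vertical), each as a percentage of the wild-type mean, with 4 gene lists in colour and equality as the dotted line. Of the 134 points, 127 lie below the line, a split that the rule favoured by asking for a gap under the Yl*ngs1*Δ label only. YALI0E14256 lies farthest from the line, at 74.4% (33.4% without replicate 3) and 14.99%.

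Formate dehydrogenase genes were among the lowest, and 7 of the 9 genes of that annotation were among the 134. The 12 gene lists were drawn, with results known, from descriptions that only genes the study lists as changed carry. Nothing is therefore read from the share of a list among the 134, here or below. The median level of the 7 genes over both mutants was 30.4% of wild type (20.3% without replicate 3 labelled Yl*rep1*Δ), with 43.0% in the libraries labelled Yl*rep1*Δ (24.1% without that replicate) and 14.99% in those labelled Yl*ngs1*Δ. The other 2, YALI0F15983 and YALI0E15840, stood at 36.9% and 32.7% but had wild-type means of 4.39 and 1.43 CPM, under the floor of the rule. Summed over the 7 genes, the libraries held 386, 391.8 and 397 CPM in WT/Vec, 268, 262 and 248 CPM in WT/4NAG, 73.1, 102 and 309.5 CPM labelled Yl*rep1*Δ and 35.0, 64.1 and 85.005 CPM labelled Yl*ngs1*Δ. The summed level was thus highest with the empty vector, intermediate in WT/4NAG and lowest in the libraries labelled Yl*ngs1*Δ, and replicate 3 labelled Yl*rep1*Δ lay above all 3 WT/4NAG libraries. All mutant libraries carried 4NAG, while the wild-type mean pooled both plasmids. Against WT/4NAG alone, which was not computed, the 6 genes with a higher mean in WT/Vec would stand less low.

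YALI0A12353, similar to *S. cerevisiae* Fdh1, was the most abundant of the 7 by FPKM, the deposited value per length of gene, with a wild-type mean of 158 FPKM. It read 214, 210.2 and 208 CPM in WT/Vec, 146, 144 and 129.6 CPM in WT/4NAG, 45.1, 64.7 and 194 CPM in the libraries labelled Yl*rep1*Δ and 20.5, 37.8 and 51.5 CPM in those labelled Yl*ngs1*Δ. Replicate 3 labelled Yl*rep1*Δ lay among the wild-type libraries, and the other 5 mutant libraries lay below all of them. YALI0F13937, named Yl*FDH1* in the annotation, had the lowest level relative to wild type of the family (17.1%). It read 19.7, 21.7 and 23.3 CPM in WT/Vec, 14.6, 14.3 and 11.5 CPM in WT/4NAG, 1.70, 2.87 and 7.91 CPM in the libraries labelled Yl*rep1*Δ and 0.844, 1.99 and 2.71 CPM in those labelled Yl*ngs1*Δ, and all 6 mutant libraries lay below all 6 wild-type libraries. YALI0C08074 read 32.1, 31.1 and 29.0 CPM in WT/Vec, 21.5, 17.5 and 13.8 CPM in WT/4NAG, 4.31, 4.35 and 14.2 CPM in the libraries labelled Yl*rep1*Δ and 0.900, 3.47 and 4.79 CPM in those labelled Yl*ngs1*Δ, where only replicate 3 labelled Yl*rep1*Δ overlapped WT/4NAG.

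YALI0B19976, highly similar to a formate dehydrogenase of *Candida boidinii*, a methanol-growing yeast, read 49.1, 45.5 and 48.9 CPM in WT/Vec, 31.1, 22.3 and 24.6 CPM in WT/4NAG, 6.23, 6.90 and 27.4 CPM in the libraries labelled Yl*rep1*Δ and 2.03, 5.17 and 6.88 CPM in those labelled Yl*ngs1*Δ. Replicate 3 labelled Yl*rep1*Δ lay among the WT/4NAG libraries, and every other mutant library was at or below 6.90 CPM. YALI0F28765, also named Yl*FDH1* in the annotation, and YALI0C14344 stood at 30.4% and 39.9% of wild type, with wild-type means of 43.5 and 18.0 CPM. YALI0E14256, unlike the other 6, had a higher mean in WT/4NAG than in WT/Vec, reading 9.17, 8.17 and 7.28 CPM in WT/Vec, 9.78, 13.8 and 12.03 CPM in WT/4NAG, 1.65, 5.06 and 15.7 CPM in the libraries labelled Yl*rep1*Δ and 1.97, 1.19 and 1.35 CPM in those labelled Yl*ngs1*Δ. Its replicate 3 labelled Yl*rep1*Δ was above every wild-type library, its other 5 mutant libraries were below all of them, and it stood at 44.7% of wild type with that library and at 22.4% without it. By wild-type FPKM the family was ordered YALI0A12353 (158), YALI0F28765 (39.6), YALI0B19976 (33.1), YALI0C08074 (21.8), YALI0C14344 (16.3), YALI0F13937 (15.8) and YALI0E14256 (9.07). The wild-type ranges of all neighbours in that order overlapped except those of YALI0A12353 and YALI0F28765. Whether reads were shared between these similar genes was not tested.

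**Figure D3:**
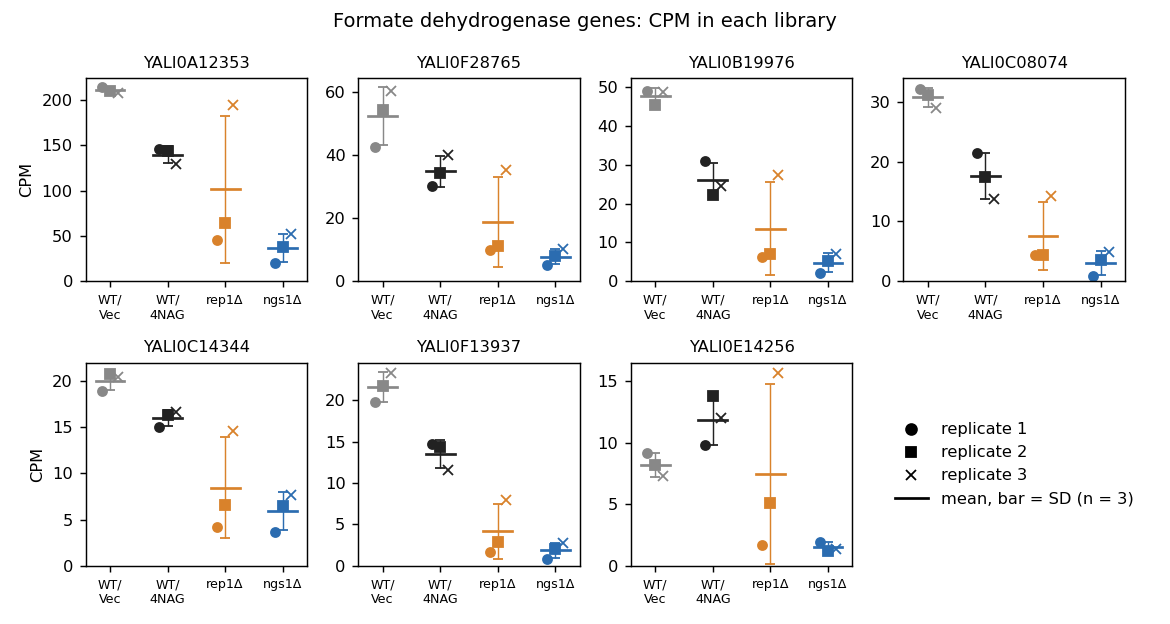
CPM of the 7 formate dehydrogenase genes in each library, with each replicate by its own symbol and the mean with its SD (n = 3) per group, each panel starting at 0. In 6 of the 7 genes WT/Vec has a higher mean than WT/4NAG. The mean of the libraries labelled Yl*ngs1*Δ is the lowest of the 4 group means in all 7, although single libraries of both mutants overlap. Crosses mark replicate 3 of every group, and replicate 3 labelled Yl*rep1*Δ is the highest mutant library in every panel.

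Of 5 listed genes for GABA use, 4 were among the 134, at a median of 43.9% of wild type (37.7% without replicate 3 labelled Yl*rep1*Δ). In *S. cerevisiae* Gad1 makes GABA from glutamate, Uga4 imports it, and Uga1 and Uga2 turn it into succinate by way of succinate semialdehyde. The transaminase gene Yl*UGA1* (YALI0E18238) read 931, 944 and 889 CPM in WT/Vec, 718, 756 and 801 CPM in WT/4NAG, 178, 279.8 and 446 CPM in the libraries labelled Yl*rep1*Δ and 212, 148 and 202 CPM in those labelled Yl*ngs1*Δ. All 6 mutant libraries lay below all wild-type libraries, at 29.1% of the wild-type mean. The dehydrogenase gene Yl*UGA2* (YALI0F26191) read 227, 221 and 211 CPM in WT/Vec, 183, 188 and 193 CPM in WT/4NAG, 83.2, 104 and 137 CPM in the libraries labelled Yl*rep1*Δ and 99.0, 74.6 and 79.3 CPM in those labelled Yl*ngs1*Δ, again without overlap, at 47.1%. The Uga4-like permease gene YALI0E07205 was low everywhere, with a wild-type mean of 10.1 CPM and 40.6% of it in the mutants. The glutamate decarboxylase gene YALI0F08415 read 563, 567 and 491 CPM in WT/Vec, 579, 639 and 568 CPM in WT/4NAG, 257, 248 and 520.5 CPM in the libraries labelled Yl*rep1*Δ and 162, 212 and 417 CPM in those labelled Yl*ngs1*Δ. It was lowest in replicate 1 labelled Yl*ngs1*Δ, and only replicate 3 labelled Yl*rep1*Δ reached into the wild-type range. The fifth gene of the list, YALI0D00495, stood at 33.2% but had a wild-type mean of 1.57 CPM.

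Nitrogen source uptake and breakdown gave 11 of 14 listed genes, with a median of 44.9% of wild type (38.2% without replicate 3 labelled Yl*rep1*Δ). The median was 54.6% in the libraries labelled Yl*rep1*Δ (43.9% without that replicate) and 38.0% in those labelled Yl*ngs1*Δ. Of the permeases, the urea and polyamine transporter gene Yl*DUR3* (YALI0B04202) was lowest, with 57.5, 54.3 and 69.7 CPM in WT/Vec, 48.9, 50.5 and 42.0 CPM in WT/4NAG, 14.1, 7.57 and 30.1 CPM in the libraries labelled Yl*rep1*Δ and 3.15, 8.81 and 9.53 CPM in those labelled Yl*ngs1*Δ. The highest mutant value, 30.1 CPM in replicate 3 labelled Yl*rep1*Δ, lay below the lowest wild-type value. The general amino acid permease gene Yl*GAP1* (YALI0C17237) read 322, 321 and 346 CPM in WT/Vec, 339, 358 and 327 CPM in WT/4NAG, 83.1, 136 and 330.0 CPM in the libraries labelled Yl*rep1*Δ and 77.6, 63.7 and 91.1 CPM in those labelled Yl*ngs1*Δ. Its replicate 3 labelled Yl*rep1*Δ was level with the wild type and the other 5 mutant libraries stood between 19.0% and 40.6% of its mean. YALI0D20482, weakly similar to Gat1, the *S. cerevisiae* activator of genes under nitrogen catabolite repression, had a wild-type mean of 19.0 CPM and stood at 25.5% in the libraries labelled Yl*ngs1*Δ. Those labelled Yl*rep1*Δ read 5.75, 6.18 and 20.3 CPM, a level of 56.6% with replicate 3, which lay in the wild-type range, and of 31.4% without it.

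Enzymes made up the rest, and YALI0E21549 was placed in the list although it is weakly similar to an enzyme of synthesis. Purine breakdown was represented by YALI0A06974, similar to an *S. pombe* xanthine oxidase, and YALI0F09251, similar to the uricase of *Pichia jadinii*, at 54.0% and 44.6% of wild type. The uricase-like gene read 309, 318 and 303 CPM in WT/Vec, 293, 279 and 253 CPM in WT/4NAG, 116, 114 and 227 CPM in the libraries labelled Yl*rep1*Δ and 84.7, 126 and 115 CPM in those labelled Yl*ngs1*Δ, with no overlap between mutant and wild-type libraries. The arginase-like gene YALI0E07535 read 508, 504 and 509 CPM in WT/Vec, 437, 467 and 462 CPM in WT/4NAG, 198, 161 and 389 CPM in the libraries labelled Yl*rep1*Δ and 114, 202 and 232 CPM in those labelled Yl*ngs1*Δ. It too had no overlap, and its 2 lowest libraries were replicate 1 labelled Yl*ngs1*Δ and replicate 2 labelled Yl*rep1*Δ. YALI0B09647, similar to Put2, which in *S. cerevisiae* completes proline breakdown to glutamate in mitochondria, had the highest CPM of the list, with no correction for gene length, at a wild-type mean of 873 CPM, and read 939, 849 and 740.1 CPM in WT/Vec, 953, 925 and 834 CPM in WT/4NAG, 346, 494 and 934 CPM in the libraries labelled Yl*rep1*Δ and 396, 334 and 384 CPM in those labelled Yl*ngs1*Δ. Replicate 3 labelled Yl*rep1*Δ lay among the wild-type libraries and the others below them. The D-amino acid oxidase-like YALI0E20735 (42.9%), the amidase-like Yl*AMD2* (YALI0D22110, 50.8%), the lysine acetyltransferase gene *LYC1* (YALI0E05533, 51.4%) and YALI0E21549 (49.9%), weakly similar to an aminotransferase of biotin synthesis, were the other enzymes, with their levels relative to wild type in parentheses. YALI0C09889 and YALI0E27203 had wild-type means of 3.61 and 2.72 CPM, and YALI0B16214 stood at 63.0% of wild type, above the limit, with 20.6% under the Yl*ngs1*Δ label. This gene read 17.9, 49.3 and 158.8 CPM in the libraries labelled Yl*rep1*Δ against a wild-type mean of 71.5 CPM, so that its level there was 105% with replicate 3 and 47.02% without it, and that over both mutants 31.2% without it.

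**Figure D4:**
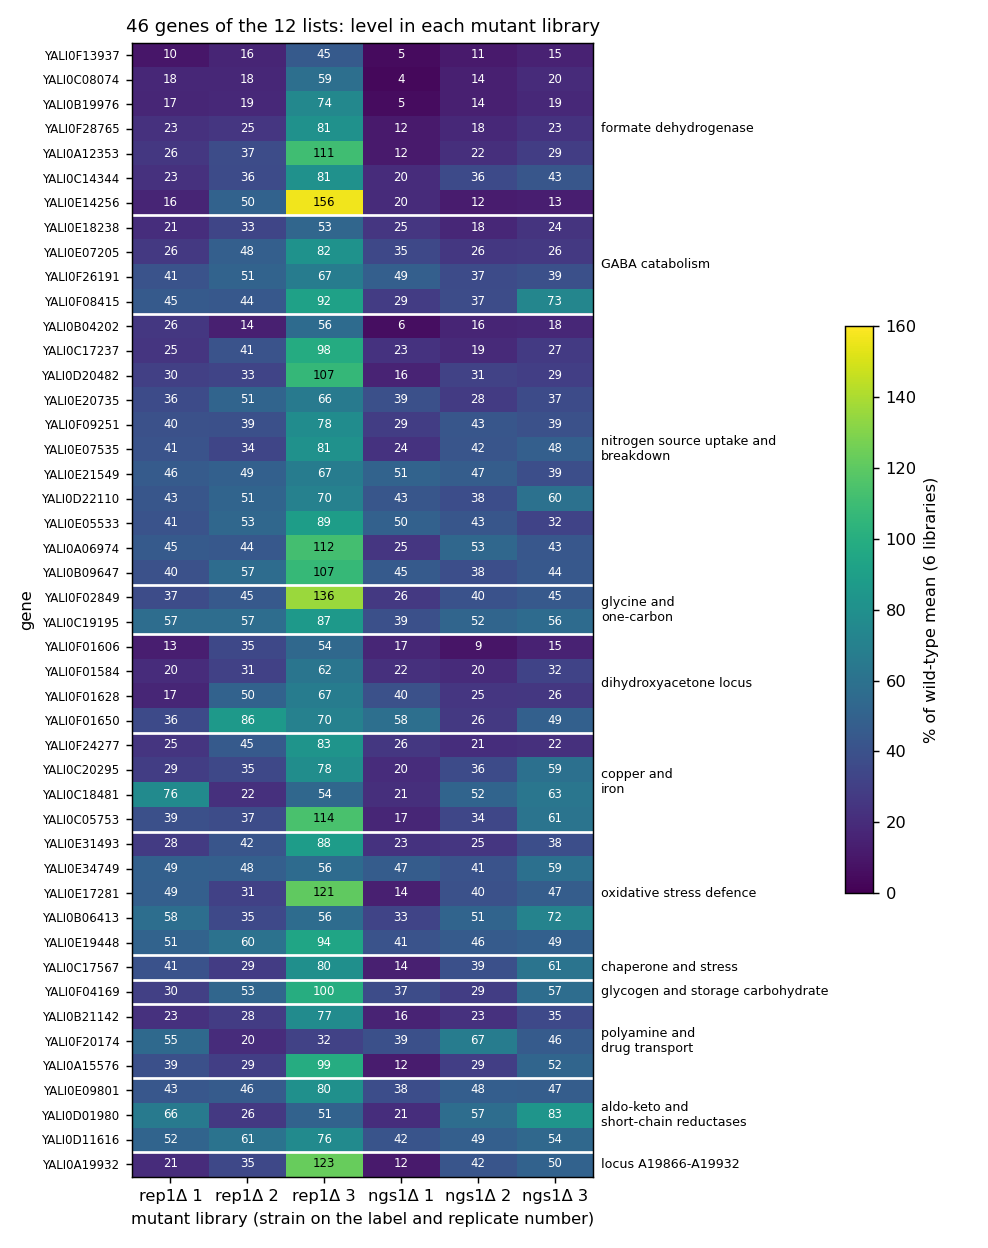
Level of the 46 genes that belong to the 12 gene lists (rows, grouped by list) in each of the 6 mutant libraries (columns), as a percentage of the wild-type mean, from 0 (dark) to 160 (bright), with the value printed in each cell. The column of replicate 3 labelled Yl*rep1*Δ is the brightest in most rows, including 156% for YALI0E14256, and the formate dehydrogenase rows are among the darkest in the 3 columns labelled Yl*ngs1*Δ.

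A run of 4 neighbouring genes on chromosome F, YALI0F01584, YALI0F01606, YALI0F01628 and YALI0F01650, was entirely among the 134. The first is similar to a putative triosephosphate isomerase of *Streptomyces coelicolor*, the second to the dihydroxyacetone kinase Dak1 of *S. pombe*, which phosphorylates dihydroxyacetone, the third to a *Debaryomyces hansenii* protein of carbohydrate metabolism, and the fourth weakly to Sps19, a peroxisomal reductase of *S. cerevisiae*. The kinase-like gene was lowest relative to wild type, at 23.9%, and read 28.2, 26.2 and 26.2 CPM in WT/Vec, 26.5, 31.3 and 26.2 CPM in WT/4NAG, 3.67, 9.50 and 14.8 CPM in the libraries labelled Yl*rep1*Δ and 4.73, 2.45 and 4.11 CPM in those labelled Yl*ngs1*Δ. Replicate 1 labelled Yl*rep1*Δ and replicate 2 labelled Yl*ngs1*Δ were the lowest, and no mutant library overlapped the wild type. The isomerase-like gene stood at 31.3%, with 21.6, 20.7 and 20.01 CPM in WT/Vec, 24.7, 22.1 and 24.2 CPM in WT/4NAG, 4.52, 6.81 and 13.8 CPM in the libraries labelled Yl*rep1*Δ and 4.95, 4.38 and 7.22 CPM in those labelled Yl*ngs1*Δ. YALI0F01628 stood at 37.6% and YALI0F01650 at 54.3%, the latter with 86.3% of wild type in replicate 2 labelled Yl*rep1*Δ, the highest mutant value of that gene. None of the 4 was lowest in replicate 1 labelled Yl*ngs1*Δ.

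Metal and redox genes were partly represented. Of 8 copper and iron genes, 4 were among the 134, at a median of 45.5% of wild type (36.9% without replicate 3 labelled Yl*rep1*Δ). YALI0F24277, annotated as a copper transporter without similarity to another protein, was lowest (37.0%) and read 43.3, 51.0 and 51.6 CPM in WT/Vec, 49.9, 53.5 and 56.5 CPM in WT/4NAG, 12.7, 23.0 and 42.2 CPM in the libraries labelled Yl*rep1*Δ and 13.2, 10.7 and 11.4 CPM in those labelled Yl*ngs1*Δ. The 3 libraries labelled Yl*ngs1*Δ and replicate 1 labelled Yl*rep1*Δ were lowest, while replicate 3 labelled Yl*rep1*Δ came close to the wild-type range without reaching it. YALI0C05753, similar to the mitochondrial copper and phosphate carrier of *S. cerevisiae*, stood at 50.5%, YALI0C20295, with some similarity to the copper transporter Ctr1, at 43.0%, and the metallothionein gene *MTP4* (YALI0C18481), whose product binds metal ions, at 48.0%. Of the other 4, YALI0C22394 and YALI0D06754 stood at 61.2% and 65.03%, and YALI0E08387 and YALI0F01386 had wild-type means of 0.735 and 0.477 CPM.

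Among 9 genes of oxidative stress defence, 5 were included, at a median of 50.3% (48.9% without replicate 3 labelled Yl*rep1*Δ). The cytosolic catalase gene Yl*CTT1* (YALI0E34749), which breaks down hydrogen peroxide, read 434, 423 and 422 CPM in WT/Vec, 537, 555 and 562 CPM in WT/4NAG, 240.1, 236 and 274 CPM in the libraries labelled Yl*rep1*Δ and 228, 199 and 290.1 CPM in those labelled Yl*ngs1*Δ. All mutant libraries lay below the wild type, between 40.8% and 59.4% of the wild-type mean. The Pst2-like quinone oxidoreductase gene YALI0E17281 read 37.7, 38.1 and 32.5 CPM in WT/Vec, 36.6, 38.6 and 40.6 CPM in WT/4NAG, 18.2, 11.6 and 45.3 CPM in the libraries labelled Yl*rep1*Δ and 5.23, 14.9 and 17.6 CPM in those labelled Yl*ngs1*Δ, a far wider range that ran from 14.01% in replicate 1 labelled Yl*ngs1*Δ to 121% in replicate 3 labelled Yl*rep1*Δ. YALI0E31493, annotated to glutathione metabolism, the NADPH oxidoreductase gene Yl*OYE2* (YALI0B06413) and the Dot5-like thiol peroxidase gene YALI0E19448 stood at 40.9%, 51.0% and 56.8%. The other 4 were under the floor (YALI0C16621 at 3.41 CPM and YALI0E09427 at 2.17 CPM) or overlapped the wild type in a library labelled Yl*ngs1*Δ (YALI0F00682 and YALI0E12507, at 56.2% and 36.1% of wild type).

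The remaining lists held few of the 134 genes. The glycine decarboxylase subunit gene YALI0F02849, whose *S. cerevisiae* counterpart Gcv1 releases one-carbon units from glycine, read 678, 691 and 649 CPM in WT/Vec, 727, 766 and 708 CPM in WT/4NAG, 263, 316 and 956 CPM in the libraries labelled Yl*rep1*Δ and 185, 283 and 315 CPM in those labelled Yl*ngs1*Δ. It was at 72.8% in the libraries labelled Yl*rep1*Δ (41.2% without replicate 3) and 37.1% in those labelled Yl*ngs1*Δ, and its replicate 3 labelled Yl*rep1*Δ lay above every wild-type library. YALI0C19195, similar to the mitochondrial S-adenosylmethionine carrier Pet8, stood at 58.0%; the other 2 glycine and one-carbon genes, YALI0E09284 and YALI0C06083, stood at 64.0% and 65.7%, above the limit. The glycogen phosphorylase gene Yl*GPH1* (YALI0F04169), which mobilises glycogen, read 296, 311 and 246 CPM in WT/Vec, 476, 581 and 488 CPM in WT/4NAG, 120.2, 212 and 398 CPM in the libraries labelled Yl*rep1*Δ and 149.8, 116 and 229 CPM in those labelled Yl*ngs1*Δ. Both other storage carbohydrate genes were above the limit at 61.6% and 64.0%. Of 5 chaperone and stress genes only the Ddr48-like YALI0C17567 was included, at 43.9%.

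The polyamine exporter-like genes Yl*TPO3* (YALI0B21142) and YALI0A15576 (Tpo1-like) stood at 33.6% and 43.5%. Of the 5 genes of this list, YALI0E10483 (70.2%) and YALI0B13728 (wild-type mean 4.70 CPM) were not included. The Ste6-like transporter gene YALI0F20174 had a wild-type mean of only 6.62 CPM and was 1 of the 7 genes with the lower mean under the Yl*rep1*Δ label (35.6%, against 50.7% under the other). So was the short-chain reductase gene Yl*NRE1* (YALI0D01980), which read 394, 386 and 394 CPM in WT/Vec, 393, 387 and 393 CPM in WT/4NAG, 258, 103 and 198 CPM in the libraries labelled Yl*rep1*Δ and 82.5, 224 and 326 CPM in those labelled Yl*ngs1*Δ. Its wild-type values were close together, while replicate 2 labelled Yl*rep1*Δ and replicate 1 labelled Yl*ngs1*Δ were far below the other mutant libraries. Of the other reductase genes, YALI0E09801 and YALI0D11616 stood at 50.4% and 55.5%. The other 4 of the 7 listed, YALI0A19910, YALI0D07062, YALI0F24937 and YALI0A15147, overlapped the wild type in a library labelled Yl*ngs1*Δ. YALI0D07062 stood at 66.9% and read 125 CPM in replicate 3 labelled Yl*ngs1*Δ, above its highest wild-type value of 108 CPM. From the 4 genes around YALI0A19866 only YALI0A19932 was included, at 47.0%.

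The 10 genes with the lowest mutant levels also held members of no list. YALI0C12100 was lowest of all at 12.8%, is annotated to amino acid transport without similarity to another protein, and read 17.3, 13.6 and 14.7 CPM in WT/Vec, 13.8, 11.7 and 11.1 CPM in WT/4NAG, 2.24, 2.69 and 3.06 CPM in the libraries labelled Yl*rep1*Δ and 1.13, 1.08 and 0.338 CPM in those labelled Yl*ngs1*Δ. The highest mutant library lay well below the lowest wild-type library, and the 3 labelled Yl*ngs1*Δ were the lowest. YALI0F29975, named Yl*OAR1* after a *C. albicans* gene for a ketoacyl reductase of mitochondrial fatty acid synthesis, read 59.98, 64.1 and 50.7 CPM in WT/Vec, 79.0, 89.0 and 85.03 CPM in WT/4NAG, 3.73, 15.8 and 45.7 CPM in the libraries labelled Yl*rep1*Δ and 3.77, 3.18 and 6.37 CPM in those labelled Yl*ngs1*Δ. It was lowest in the 3 libraries labelled Yl*ngs1*Δ and in replicate 1 labelled Yl*rep1*Δ, and at 45.7 CPM replicate 3 labelled Yl*rep1*Δ was below all wild-type libraries. YALI0F11605, annotated with acetyltransferase activity, stood at 22.4%, and YALI0A02607, similar to a *Pseudomonas* amidohydrolase of N-carbamyl-L-cysteine, at 26.7%.

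Further enzymes of amino acid breakdown and of mitochondria outside the lists are named here after their values were seen. YALI0F23749, highly similar to a probable glutaryl-CoA dehydrogenase of *N. crassa*, an enzyme of lysine and tryptophan breakdown, stood at 30.2% and read 278, 254 and 249 CPM in WT/Vec, 199, 189 and 218 CPM in WT/4NAG, 56.4, 78.0 and 115 CPM in the libraries labelled Yl*rep1*Δ and 67.3, 42.1 and 60.03 CPM in those labelled Yl*ngs1*Δ. No mutant library overlapped the wild type. YALI0D06930, similar to Aro10, which in *S. cerevisiae* decarboxylates phenylpyruvate on the way from phenylalanine to its fusel alcohol, stood at 40.7% with 259.6, 252 and 225 CPM in WT/Vec, 197, 218 and 208 CPM in WT/4NAG, 82.2, 74.7 and 186 CPM in the libraries labelled Yl*rep1*Δ and 55.8, 68.4 and 86.4 CPM in those labelled Yl*ngs1*Δ. It had no overlap either. The cysteine dioxygenase-like YALI0F11627 had a wild-type mean of 18.4 CPM and stood at 41.6%, and the aminotransferase-like YALI0E07051 stood at 57.8%, with 109% of wild type in replicate 3 labelled Yl*rep1*Δ. The malic enzyme-like YALI0E18634 (Mae1 in *S. cerevisiae*) read 416, 431 and 340.3 CPM in WT/Vec, 533, 599 and 533 CPM in WT/4NAG, 153, 189.8 and 473 CPM in the libraries labelled Yl*rep1*Δ and 98.9, 132 and 256 CPM in those labelled Yl*ngs1*Δ. Replicate 3 labelled Yl*rep1*Δ lay among the wild-type libraries. It stood at 57.2% in the libraries labelled Yl*rep1*Δ (36.02% without replicate 3) and 34.2% in those labelled Yl*ngs1*Δ. YALI0E06589, similar to another gene of the set, YALI0F17182, was nearly equal in both mutants, at 31.4% and 31.1%, while YALI0F17182 stood at 63.8% and 51.2%.

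Among the 10 genes with the highest wild-type CPM, YALI0C22000, which has no description in the sources used, came first with 1357, 1436 and 1353 CPM in WT/Vec, 1552, 1691 and 1638 CPM in WT/4NAG, 938, 560.0 and 1309 CPM in the libraries labelled Yl*rep1*Δ and 360.2, 847 and 1154 CPM in those labelled Yl*ngs1*Δ. It stood at 57.2% of wild type, and replicate 1 labelled Yl*ngs1*Δ was the lowest library. YALI0E28259, with some similarity to another *Y. lipolytica* gene, was also among the 10 lowest relative to wild type (25.8%), reading 533, 619 and 494.8 CPM in WT/Vec, 770.1, 995 and 870.0 CPM in WT/4NAG, 81.0, 307 and 303 CPM in the libraries labelled Yl*rep1*Δ and 229, 72.4 and 109.8 CPM in those labelled Yl*ngs1*Δ. YALI0F24409, weakly similar to Rcf2, a subunit tied to cytochrome c oxidase in *S. cerevisiae*, stood at 33.7%. YALI0A17020, with a domain annotated as Kruppel-like, and YALI0C19382, without a description, stood at 46.8% and 57.7%. The others of the 10 were *UGA1*, *GAD1*-like YALI0F08415, the Put2-like, Gcv1-like and copper carrier genes described above.

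At the limits of the rule, the highest ratios inside were those of YALI0C16753, YALI0E07271 and YALI0B19778 (59.99%, 59.85% and 59.84%) and the lowest outside those of YALI0B02852, YALI0E32989 and YALI0E05511 (60.02%, 60.27% and 60.30%). The wild-type means just inside the floor were 5.48, 5.70 and 5.84 CPM (YALI0E07381, YALI0A12683 and YALI0F13035) and just outside 4.99, 4.70 and 4.62 CPM (YALI0E04202, YALI0B13728 and YALI0E24189). The highest Yl*ngs1*Δ-labelled value was 0.991, 0.932 and 0.922 times the lowest wild-type value for YALI0F24453, YALI0F04169 and YALI0C22121, and 1.0003, 1.02 and 1.02 times it for YALI0A15147, YALI0C17589 and YALI0E32703, which were therefore left out. A description was given in the supplementary gene annotation for 110 of the 134 genes, 17 of them as having no similarity to another protein. The 24 without one stood at a median of 57.6% of wild type, against 47.1% for the rest, and only genes that the study lists as changed carry a description.

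In wild-type cells, the 134 genes differed between the 4NAG plasmid and the empty vector by log2 fold changes between −0.85 and 0.89. With edgeR, at an adjusted p below 0.05 and a fold change of 2 or more, none of them was called higher or lower in WT/4NAG, while of the 6043 genes tested 0.182% were called higher and 0% lower. At an unadjusted p under 0.05, 47 of the 134 were higher and 28 lower in edgeR, with 46 and 26 in DESeq2, which also called none. The share of all genes tested at that unadjusted threshold was not counted, so these counts are not interpreted. Without the fold threshold, 32 of the 134 genes (23.9%) passed the adjusted p as higher and 17 (12.7%) as lower, where 6.24% and 4.32% of all genes tested did. The genes tested included genes under 5 CPM, whereas the median wild-type mean of the 134 was 105 CPM. Shares among genes of like level were not computed. With all 12 libraries in a single fit, whose estimate of the spread includes the mutant libraries, none of the 134 passed. The median log2 fold change of the 134 genes was 0.09 against 0.00 for all genes tested, 83 of them lying above 0 and 51 below. The 3 WT/4NAG libraries lay wholly above the 3 WT/Vec libraries for 39 genes (29.1%) and wholly below for 31 (23.1%), where 12.3% and 21.1% of the expressed genes did so. These last counts used CPM without the TMM scaling of the test. TMM factors over all 12 libraries lay between 1.0007 and 1.0211 in WT/Vec and between 0.9858 and 0.98875 in WT/4NAG. Unscaled CPM therefore tips small differences towards lower in WT/4NAG.

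Most formate dehydrogenase genes were lower with the plasmid. Of the 7, 5 fell, 1 rose and 1 did not pass the test. YALI0B19976 fell most, from 47.8 ± 2.03 CPM (SD, n = 3) in WT/Vec to 25.98 ± 4.57 CPM in WT/4NAG (log2 fold change −0.85, standard error 0.10, adjusted p = 9.34e-05); without replicate 1 of WT/4NAG it was past 2-fold (log2 fold change −1.004), the only gene of the 134 to be called so. YALI0C08074 fell from 30.8 ± 1.59 CPM to 17.6 ± 3.84 CPM (log2 fold change −0.78, standard error 0.13, adjusted p = 9.80e-04), YALI0F13937 from 21.6 ± 1.77 CPM to 13.5 ± 1.73 CPM (log2 fold change −0.64, standard error 0.12, adjusted p = 0.00273), and YALI0A12353 from 211 ± 3.17 CPM to 139.9 ± 9.03 CPM (log2 fold change −0.56, standard error 0.06, adjusted p = 2.69e-05). YALI0F28765 fell as well (log2 fold change −0.56, adjusted p = 0.00791), and YALI0C14344 did not pass (log2 fold change −0.30, adjusted p = 0.0773). YALI0E14256 rose from 8.21 ± 0.948 CPM to 11.9 ± 2.02 CPM (log2 fold change 0.57, standard error 0.15, adjusted p = 0.0256), a call lost without replicate 2 or 3 of either group.

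Of the 4 GABA genes, *UGA1* fell from 921 ± 29.0 CPM to 758 ± 41.5 CPM (log2 fold change −0.25, standard error 0.05, adjusted p = 0.00689) and *UGA2* fell (log2 fold change −0.19, adjusted p = 0.0315), the latter a call lost without any 1 of 5 libraries, every one but replicate 3 of WT/Vec. Of the 11 nitrogen genes, the xanthine oxidase-like YALI0A06974 (log2 fold change −0.34, standard error 0.06, adjusted p = 0.00168) and *DUR3* (log2 fold change −0.33, adjusted p = 0.0409) fell, *AMD2* rose (log2 fold change 0.30, adjusted p = 0.0154), and 8 did not pass. The calls for *DUR3* and *AMD2* were lost without replicate 3 of WT/Vec or replicate 2 of WT/4NAG, and that for *DUR3* also without replicate 3 of WT/4NAG and with limma (adjusted p = 0.0553). None of the 4 dihydroxyacetone locus genes passed, their log2 fold changes lying between −0.13 and 0.22.

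Other genes of the set rose with the plasmid. Glycogen phosphorylase rose most, from 284 ± 34.3 CPM to 515 ± 57.3 CPM (log2 fold change 0.89, standard error 0.08, adjusted p = 1.07e-05). Catalase T rose from 426 ± 6.67 CPM to 551 ± 12.6 CPM (log2 fold change 0.40, standard error 0.05, adjusted p = 9.24e-05), YALI0E28259 from 549 ± 63.9 CPM to 878 ± 112 CPM (log2 fold change 0.71, standard error 0.09, adjusted p = 9.34e-05) and *OAR1* from 58.2 ± 6.85 CPM to 84.3 ± 5.06 CPM (log2 fold change 0.56, standard error 0.08, adjusted p = 3.51e-04). In each of these 4 genes all WT/4NAG libraries lay above all WT/Vec libraries. YALI0E06589 and YALI0F25487, named after their values were seen, rose by log2 fold changes of 0.84 and 0.70 (adjusted p = 4.89e-05 and 7.32e-05). The copper carrier-like YALI0C05753 (log2 fold change 0.27, adjusted p = 0.0124) and the Ddr48-like YALI0C17567 (log2 fold change 0.38, adjusted p = 0.0121) rose by less, both calls being lost without replicate 3 of WT/Vec, the first also without replicate 2 of WT/4NAG and the second also without replicate 2 of WT/Vec and with DESeq2 (adjusted p = 0.0721). Of the genes with the highest wild-type CPM, YALI0A17020 (log2 fold change 0.46, adjusted p = 2.05e-04) and YALI0C22000 (log2 fold change 0.27, adjusted p = 0.00429) rose.

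The genes of no list in this paragraph are named after their values were seen. YALI0F23749, highly similar to a probable glutaryl-CoA dehydrogenase of *Neurospora crassa*, fell from 259.9 ± 15.5 CPM to 202 ± 14.5 CPM (log2 fold change −0.34, standard error 0.06, adjusted p = 0.00279). YALI0D06930, similar to the phenylpyruvate decarboxylase Aro10 of *S. cerevisiae*, fell as well (log2 fold change −0.21, adjusted p = 0.0388), while YALI0F11627, similar to a putative cysteine dioxygenase of *C. albicans*, did not pass (log2 fold change 0.21, adjusted p = 0.235). YALI0E18634, similar to Mae1, the mitochondrial malic enzyme of *S. cerevisiae* that yields pyruvate from malate, rose from 396 ± 48.5 CPM to 555 ± 38.1 CPM (log2 fold change 0.52, standard error 0.08, adjusted p = 4.07e-04), and the NADH kinase-like YALI0E23991 rose by less (log2 fold change 0.29, adjusted p = 0.0102). The call for YALI0D06930 was lost without replicate 1 or 2 of WT/Vec or replicate 1 or 3 of WT/4NAG, and that for YALI0E23991 without replicate 2 of WT/4NAG.

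**Figure D5:**
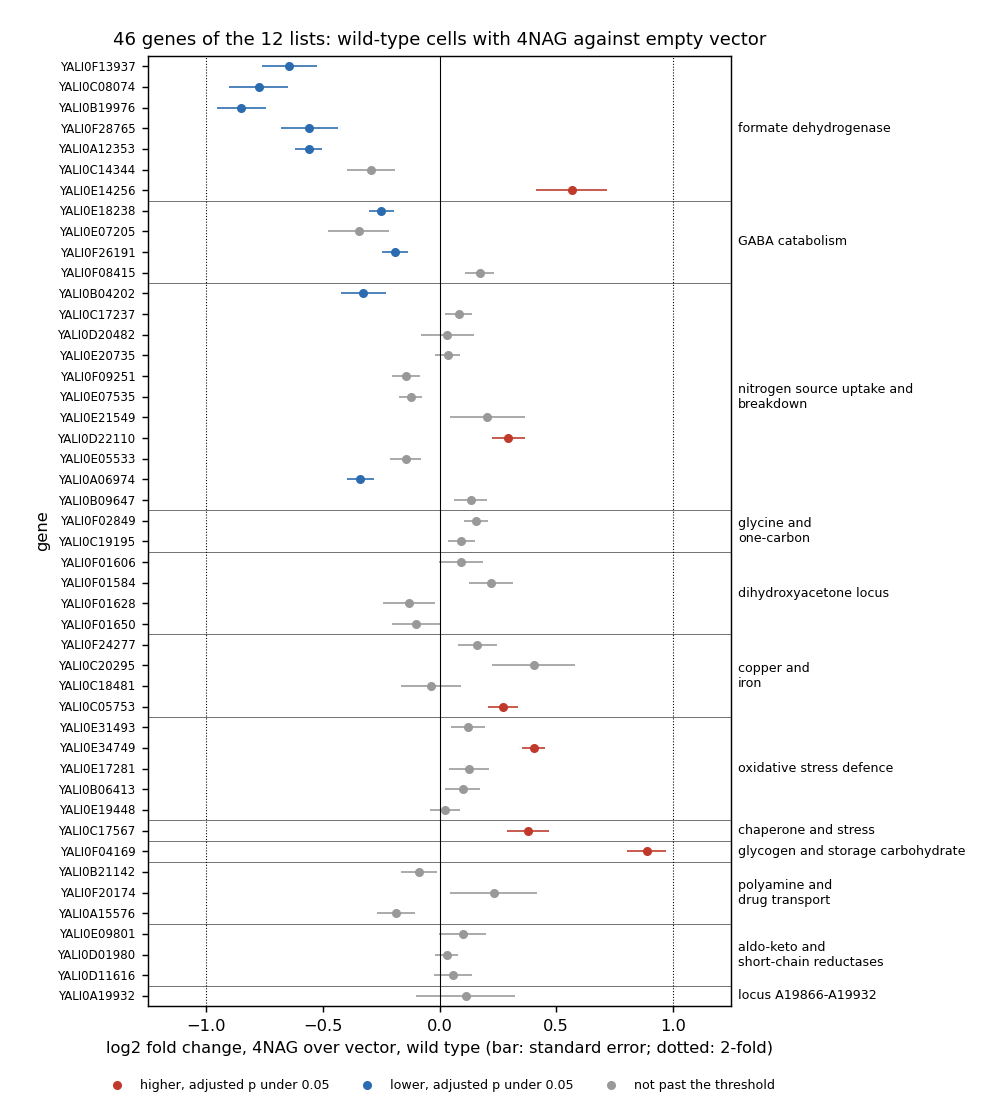
Log2 fold change of WT/4NAG over WT/Vec (horizontal, edgeR, bars are standard errors, n = 3 per group) for the 46 listed genes, grouped by list, with red for higher and blue for lower at an adjusted p under 0.05 and dotted lines at 2-fold. Of the 46 genes 15 are coloured, 5 of the 7 formate dehydrogenase genes lie to the left in blue, glycogen phosphorylase lies farthest right at 0.89, and no point crosses a dotted line.

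The 134 genes were spread over all 6 chromosomes. The letter in a gene's ID names its chromosome, and A to F held 13, 11, 23, 20, 30 and 37 of them, between 1.35% (B) and 3.16% (F) of the expressed genes of a chromosome, where the share over all was 2.48%. When genes were ordered by the number in the ID, 8 of the 134 (5.97%) had another of them as the next listed gene, and 211 of 5217 other expressed genes (4.04%) had 1 of the 134 beside them. Apart from the dihydroxyacetone locus there were 2 pairs, *TPO3* with YALI0B21164, which has no similarity to another protein and stood at 41.7%, and the Uga4-like permease gene YALI0E07205 with YALI0E07271, at 40.6% and 59.8%.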

How the data were processed

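RNA-Seq was run on 12 libraries in 4 groups of 3. The authors deposited raw counts per gene and FPKM values per gene for each library; TopHat2 2.1.1 and Cufflinks 2.2.1 are named in the submitters' processing notes, which also name a mouse genome build (mm10). The counting program, its strand setting and the annotation: not given in the sources used here. Library totals of 15667204 to 22650213 counts limit the precision of genes near the floor of 5 CPM. A gene missing from a library's table was taken as 0 (24 genes, with a highest count of 20). No column lay outside the sample map.

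CPM values were counts over the column sum. WT/4NAG was compared with WT/Vec by edgeR 4.0.16 (R 4.3.3; TMM scaling, filterByExpr, quasi-likelihood test, 3 libraries against 3) over 6043 genes, with Benjamini-Hochberg adjustment over all of them, and differences are called at an adjusted p below 0.05 and 2-fold. Counts simulated for that comparison over 6020 genes were scored at the adjusted p alone, with no fold threshold. So scored, 99 of 100 genes changed by a log2 fold change of 1 and 100 of 100 changed by 2 were recovered, and 6 unchanged genes passed. Recovery at the 2-fold threshold was not counted. The median fitted log2 fold change of the genes changed by 1 was 0.988, under that threshold. DESeq2 1.42.0 and limma 3.58.1 (voom with sample weights) served as alternatives, and Python 3.11.15 was used for the rest. The members and the 12 gene lists were chosen with earlier results of these data known. Genes are named when they are in a list, among the 10 highest wild-type means or the 10 lowest ratios, next to a threshold, called between the wild-type groups, or neighbours; others are marked as named after their values were seen. Gene roles come from the study's annotation of changed genes. Counts of replicate pairs differed by more than sampling noise, so no library was counted as a duplicate. Sequences, protein families and promoter motifs were not analysed here.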

Additional observations from a re-analysis of the deposited data

How the results depend on the processing

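The number of genes depended on the rule: 71 met a ratio of 0.5 and 88 had every mutant library below every wild-type library, while TMM-scaled CPM gave 130 genes (129 of them among the 134) and a floor of 10 CPM gave 125. Leaving out each library in turn gave 120 to 198 genes. Without replicate 3 labelled Yl*rep1*Δ there were 198, which held all 134, without replicate 3 labelled Yl*ngs1*Δ 167 (126 shared), and without replicate 1 labelled Yl*ngs1*Δ 120.

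For WT/4NAG against WT/Vec, the counts of 0 higher and 0 lower at 2-fold became 32 and 17 with no fold threshold. Leaving out each replicate in turn gave 0 to 1 lower. With no fold threshold it gave 19 to 36 higher (19 without replicate 2 of WT/4NAG, 36 without replicate 1) and 12 to 16 lower, and a median log2 fold change of 0.06 to 0.11. With all 12 libraries in a single fit 0 genes passed as higher and 0 as lower, with 3 and 2 at an unadjusted p below 0.05. Of the 49 genes past the adjusted p, 29 kept it without each of the 6 libraries, 48 with DESeq2 and 47 with limma, and none reversed. The alternatives for the counts without a fold threshold and for the median levels were chosen after seeing the data.

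With the replicate number as a block, 0 genes were called higher and 0 lower at 2-fold, 39 and 18 passed the adjusted p, and the median log2 fold change was 0.0851. Deviations of libraries with the same number correlated at 0.0444, 0.0542 and 0.0756, all under 0.1, so the numbers were not taken to pair the samples, though each library correlated best with its own number, a hint from the data only.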
